A study of Drosophila melanogaster with 8 samples.

Results

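The nuclear genes of oxidative phosphorylation were followed through 8 long-read cDNA libraries of Drosophila melanogaster. Genes were taken where the FlyBase symbol begins with ND- (complex I), UQCR- (complex III), COX (complex IV) or ATPsyn (complex V), or is SdhA, SdhB, SdhC or SdhD (complex II). Symbols that end in a capital L, the mark of most testis copies, were left out. This gave 66 of the 14292 genes of the table: 35 of complex I, 4 of complex II, 6 of complex III, 10 of complex IV and 11 of complex V. Of the 18 symbols left out, ND-MNLL only happens to end in that letter and is no testis copy. It held at most 2.6 counts in a library. The copies ND-51L1, ND-51L2, COX6AL2 and COX7AL2 stayed in by the letter of the rule, with at most 3 counts in any library. The subunit genes blw, RFeSP, Cyt-c1, ox, levy, cype and sun, and the cytochrome c genes Cyt-c-p and Cyt-c-d, do not carry these prefixes and are described apart from the members.

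In oxidative phosphorylation, complexes I and II pass electrons from NADH and succinate to ubiquinone, complex III passes them on to cytochrome c, and complex IV hands them to oxygen. The proton gradient built by complexes I, III and IV drives complex V, the ATP synthase. Complex I has core subunits, which hold the redox centres or pump protons, and a larger number of accessory subunits. Some core subunits of complexes I, III, IV and V are encoded in mitochondrial DNA, and complex II is entirely nuclear. In insects, photoreceptors and flight muscle are known for a high oxidative demand. Roles of subunits below are those known from the mammalian complexes unless stated.

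All flies were of the wild type strain Oregon R, with no transgene, mutation or treatment named, reared at 25 °C, and the labels give an age of 5 to 7 days after hatching. The labels describe how eyes, heads and testes were obtained, but no source used here says how or at what stage the salivary glands, or how the ovaries, were isolated. Eyes, heads and salivary glands were each sampled from females and from males, and ovaries and testes came from the matching sex, with 1 library in each of the 8 groups. Nor do the labels say how many flies were pooled for a library. The cDNA had been enriched by RACE, an amplification from gene-specific primers, for the ends of qtc (quick-to-court) transcripts, a gene outside the members, and the members were read from the unselected remainder. No group has a replicate. Intervals below cover counting error only, since amplified reads that carry no molecular identifier need not come from separate molecules.

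A library held 88388 (testes) to 151408 (female salivary glands) estimated counts matched to annotated genes. Levels are given as CPM, the counts scaled to a matched total of 1000000, so 1 count was worth 6.6 to 11.3 CPM. Before any comparison, the libraries were checked against marker genes. The photoreceptor list, with 9 of its 10 genes in the table, took 4.63% of the counts of female eyes, 17.4% of male eyes, 7.99% and 8.48% of female and male heads, and at most 0.034% elsewhere. All 7 salivary glue genes were above 0 in both salivary gland libraries and took 2.38% and 1.97%. In the same libraries all 6 fat body genes were above 0 and took 17.9% in females and 17.3% in males, against 0.00514% to 1.14% in the other libraries. Glue genes and the larval serum proteins that lead the fat body list are known from late larvae, so tissue and stage cannot be told apart in comparisons with these libraries. Some eye and head libraries carried genes foreign to their labels. Female eyes held 6 of 10 eggshell genes at 8.36% of the counts, next to 15.9% in ovaries and at most 0.0572% elsewhere, with Cp16, Cp18, Cp19 and Vm32E at 0. Nearly all of it was Cp15, at 11807.4 counts. The same library held 8 of 9 gut enzyme genes at 0.46%, against 0.00239% in male eyes. Male eyes held all 6 fat body genes at 1.14% and all 7 glue genes at 0.0491%. Female heads held 4 of the 9 testis genes found in the table at 0.36%, next to 0.472% in testes, with Mst84Da, Mst84Dc, Mst87F, dj and Mst77F at 0. Mst98Ca alone had 457.9 counts there. In the other libraries the testis list took at most 0.00143%. Rows named as rRNA took 1.94% (ovaries) to 23.9% (female eyes).

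The members together made up most of a percent to a few percent of each library and were highest in heads. Their share of matched counts was 4.34% in heads of females (95% Wilson interval 4.23 to 4.45) and 3.52% in those of males (3.42 to 3.62). It was 2.02% in female eyes (1.95 to 2.09) and 1.65% in male eyes (1.58 to 1.72). Salivary glands had the lowest shares, 0.853% in females (0.808 to 0.9) and 1% in males (0.95 to 1.06). Ovaries stood at 2.46% (2.38 to 2.54) and testes at 1.24% (1.17 to 1.31). No interval overlapped another, but the spread between flies is unknown, and by TPM (the deposited transcript levels, corrected for length and scaled to a common total) male eyes stood above female eyes, at 3.03% and 2.8%. Ovaries, above both eye libraries by counts, were below both by TPM at 2.75%, and the head libraries stood at 5.65% and 5.63%. The muscle list, with 9 of 9 genes above 0 in heads, also took more there, 0.838% in females and 0.64% in males, than in eyes, at 0.0629% and 0.138%. Most of it in heads was wupA, at 801.5 and 558.6 counts. Mhc went the other way in males, with 191 CPM in eyes and 111 in heads, as did up and Act88F. The neuron list took 0.188% and 0.176% in heads, mostly Syx1A at 198 and 157.3 counts, and 0.0351% and 0.0458% in eyes. The part of these lists in the member share was not tested, and in whole tissues fewer cells of a type and less RNA per cell cannot be told apart.

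**Figure D1:**
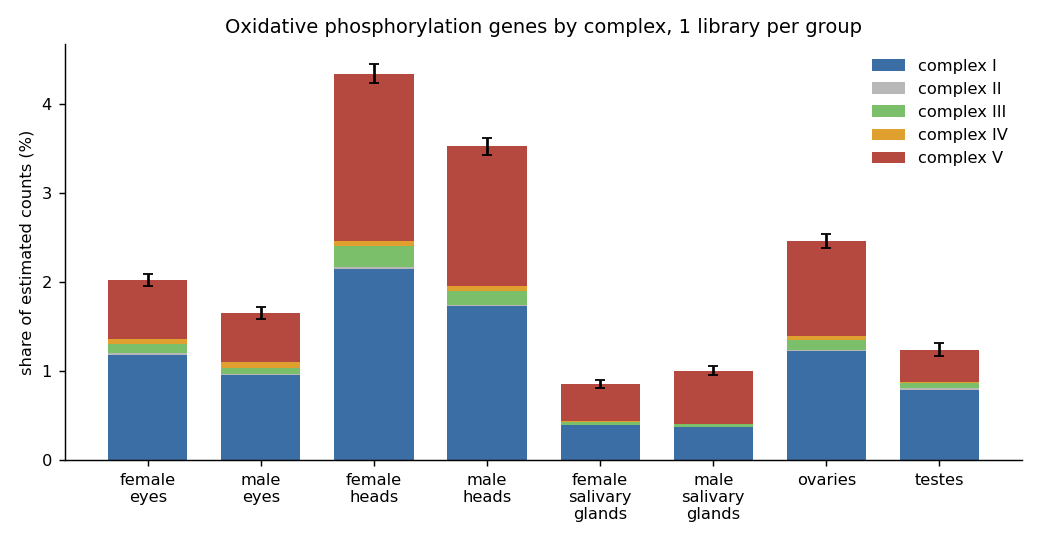
Share of estimated counts (%, y axis) taken by the 66 genes in each of the 8 libraries (x axis), stacked by complex, with the 95% Wilson interval of the total as a black bar. Heads reach 4.34% and 3.52% and salivary glands 0.853% and 1%, and complexes I and V fill nearly all of every column.

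Complexes I and V supplied most of the member counts in every library. Complex I took 58.4% of them in female eyes, 57.6% in male eyes, 49.5% in female heads, 49% in male heads, 45.8% in female salivary glands, 37% in male salivary glands, 49.5% in ovaries and 63.3% in testes. Complex V took 32.6%, 33.4%, 43.4%, 44.4%, 49.3%, 59.3%, 43.4% and 29% in the same order. The balance of both thus differed by tissue: complex V was ahead in both salivary gland libraries, and complex I was ahead elsewhere. In heads and ovaries that lead rested on ND-SGDH: without the most counted member of each complex, complex V took 56.4% and 55.5% in female and male heads against 40.1% and 39.3% for complex I, and 47.3% against 46.4% in ovaries. Complex III stayed between 3.02% (male salivary glands) and 5.49% (female heads). Complex IV ranged more widely, from 0.228% in male salivary glands (0.0769 to 0.662) to 4.18% in male eyes (3.42 to 5.16). Complex II, with 4 genes, took 0.311% (female salivary glands) to 1.81% (testes). The order of complexes I and V in salivary glands turned when each complex was weighed by TPM. On that scale complex I led there too, with 49.2% against 40.8% of the member TPM in females and 47.6% against 44.9% in males.

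Few genes carried these sums. ND-SGDH, ATPsynD and ATPsynbeta together held 52.9% (female eyes) to 81% (male salivary glands) of the member counts. ND-SGDH (FBgn0011455, chromosome 3L from 12137496 to 12138584, minus strand, BDGP6) encodes an accessory subunit of complex I. It stood at 6530 and 5623 CPM in female and male eyes, 13189 and 11108 in heads, 2173 and 2773 in salivary glands, 7286 in ovaries and 4241 in testes. ATPsynD (FBgn0016120, chromosome 3R from 19095000 to 19096271, plus strand), a subunit of the stator stalk of complex V, followed the same order of tissues. Its values were 3403 and 2304 CPM in female and male eyes, 7180 and 6982 in heads, 1443 and 1592 in salivary glands, 5691 in ovaries and 1792 in testes. Heads were the highest and salivary glands the lowest libraries for both genes. Corrected for length, ND-SGDH had the highest TPM of all members in each of the 8 libraries, 2819 to 19233, and ATPsynD the second highest, 2094 to 12614.

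ATPsynbeta (FBgn0010217, chromosome 4 from 1031484 to 1034917, plus strand), the catalytic subunit of the ATP synthase, had another profile. It stood at 7501 and 4949 CPM in female and male heads, 2178 and 3758 in salivary glands, 2499 in ovaries, 1517 in testes, and 753 and 935 in eyes. Eyes were therefore the lowest libraries for this gene and not salivary glands. ND-ACP (FBgn0011361, chromosome 3L from 1329949 to 1331631, plus strand), the mitochondrial acyl carrier protein that is also a complex I subunit, was highest in ovaries at 2119 CPM and in eyes at 1957 and 1442. It stood at 866 and 936 CPM in heads, 150 and 243 in salivary glands and 248 in testes. ATPsynC (FBgn0039830, chromosome 3R from 31216145 to 31219630, minus strand), the subunit of the proton-carrying ring, ranged from 2153 and 1951 CPM in heads and 1350 and 1359 in eyes to 172 and 217 in salivary glands and 79.4 in testes, with 1269 in ovaries. The plot of 6 members by library shows these differing profiles.

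**Figure D2:**
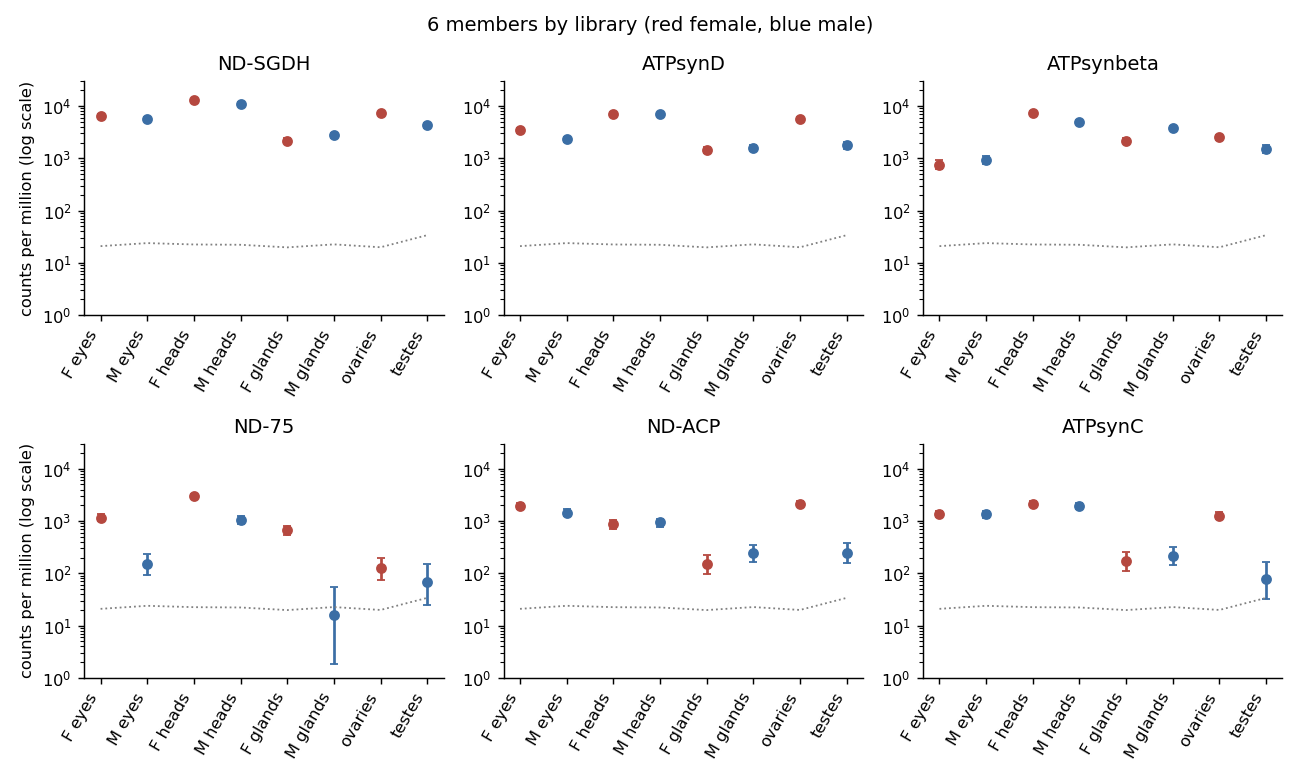
CPM (y axis, log scale) of 6 members in each library (x axis, F female, M male), with exact 95% Poisson intervals; the dotted line is the level of 3 counts in each library. ATPsynbeta is lowest in eyes (753 and 935), ND-ACP highest in ovaries (2119), and ND-75 in male salivary glands lies at 16.

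In complex III, UQCR-14, a small subunit of the complex, was the most counted, with 854 and 450 CPM in female and male eyes, 2140 and 1304 in heads, 246 and 242 in salivary glands, 971 in ovaries and 427 in testes. Its exons overlap those of CG32576 on the opposite strand, which held 289 counts over the 8 libraries against 894.1 for UQCR-14, and whether the counting used strand is not stated, so reads of the pair may be mixed. UQCR-Q ranged from 30.3 CPM (male salivary glands) to 196 (female heads), and UQCR-C1, a core protein of the complex, held at most 5.2 counts in a library. Complex IV was led by COX6B, COX5B and COX7A with mean levels over the 8 libraries of 101, 95.6 and 50.7 CPM. Complex II was led by SdhA, the flavoprotein, SdhD and SdhC, both membrane anchors, with means of 48.8, 38.1 and 37.8 CPM, and none of the 3 had more than 15.3 counts in a library. Complexes II and IV thus rest on few counts per gene.

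Many members were near the limit of this depth. Of the 66, 33 reached 10 counts in at least 1 library, 18 of them in complex I, 2 in complex II, 2 in complex III, 4 in complex IV and 7 in complex V. Only 7 reached 10 counts in every library, and 13 had 3 counts or fewer in each. ND-B14.5A, ND-B17 and ND-B8 were at 0 in all 8 libraries, which allows up to 19.8 CPM in the deepest library and 33.9 in testes. Members above 0 numbered 57 and 58 in female and male eyes, 58 and 56 in heads, 41 and 38 in salivary glands, 54 in ovaries and 50 in testes. The salivary gland libraries detected the fewest at a depth, 151408 and 132483 counts, close to that of heads, 133465 and 135168.

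**Figure D3:**
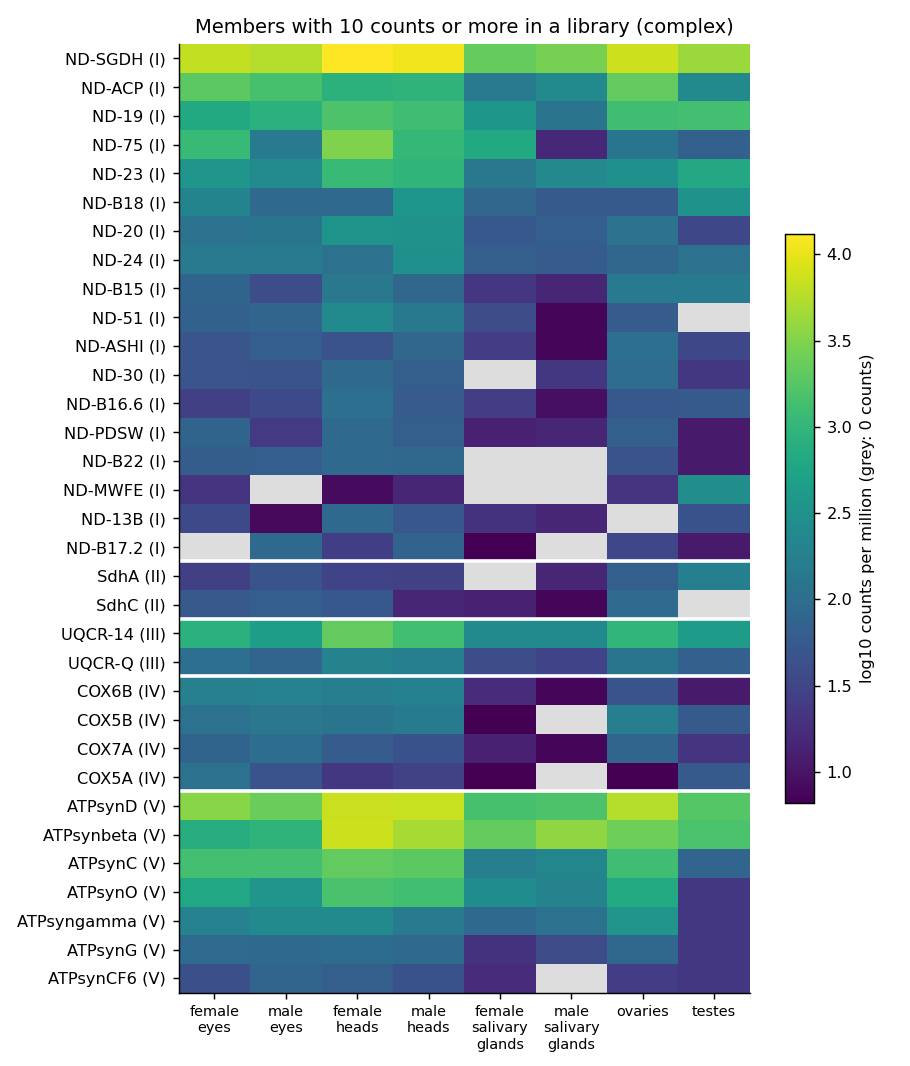
Level of the 33 members with 10 counts or more in at least 1 library (rows, grouped by complex) in the 8 libraries (columns), as log10 CPM; grey marks 0 counts. ND-SGDH and ATPsynD form the brightest rows, and the salivary gland columns are darkest, with ND-B22 and ND-MWFE at 0 in both.

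The members lie on chromosomes 2L (13), 2R (13), 3L (14), 3R (13), X (11) and 4 (2), and the 3 most counted are on 3L, 3R and 4. In complex I, the 7 nuclear core subunits ND-75, ND-51, ND-49, ND-30, ND-24, ND-23 and ND-20 took a smaller part of the counts than the 26 accessory subunits in every library, with the 2 copies of ND-51 left aside. Their part was 16% of complex I in female and 8.81% in male eyes, 23% and 16.3% in heads, 24.7% and 10.9% in salivary glands, 6.51% in ovaries and 11.4% in testes. The higher part in the female library of each somatic pair was that of ND-75 alone. Without this gene the core part was 6.91% in female and 7.33% in male eyes, 10.4% and 10.9% in heads and 9.18% and 10.5% in salivary glands, with overlapping intervals in each pair. The 2 annotated transcripts of ND-SGDH shared its counts nearly equally in the authors' estimates, with ND-SGDH-RA at 42.4% (male salivary glands) to 57% (testes). ATPsynbeta-RA held 87.4% of the ATPsynbeta counts in male eyes and 100% in female eyes. These splits depend on how reads were assigned to transcripts that share exons.

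Salivary glands were compared with heads and with eyes to ask how tissues differ while sex is held constant. The 6 somatic libraries were fitted with edgeR as tissue plus sex, and a gene was called at an adjusted p under 0.05 over the 1316 genes with enough counts. Against heads, all 23 members that could be tested had a fitted value below 0 in salivary glands, next to 47.5% of all tested genes. COX5B, COX6B and ATPsynC fell past the adjusted threshold. COX5B, which encodes a nuclear subunit of cytochrome c oxidase, gave 17 and 20.8 counts in female and male heads, 16.1 and 17 in eyes, but 1 and 0 in female and male salivary glands. The groups did not overlap. The ratio of the summed rates was 0.025 (exact interval 6.14e-04 to 0.147), and the fitted log2 change was -4.39 with an SE of 1.12 (edgeR adjusted p = 0.034), which depends on the prior count at such low values. COX6B, another nuclear subunit of the same enzyme, gave 22.6 and 25 counts in heads, 26.2 and 23.8 in eyes and 2.6 and 1 in salivary glands. It was at 0.0716 of its rate in heads (0.0206 to 0.215; log2 change -2.95, SE 0.836, edgeR adjusted p = 0.0427). ATPsynC, counted 287.3 and 263.7 times in heads and 26 and 28.7 times in salivary glands, is the best measured of the 3. It fell by 2.71 on the log2 scale (SE 0.629, edgeR adjusted p = 0.0276). Its summed rate was 10.6-fold lower (8.01 to 14.2), which is a larger difference than the fitted one. Summed rates are scaled to library totals. The fit also applied scaling factors (TMM) of 1.3 and 1.32 to female and male heads and 0.777 and 0.796 to salivary glands, so the measures differ for all 3 genes.

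A member kept in the fit only through the tissue where it is high had to differ, so counts and medians over the 23 are descriptions. The 3 calls, all lower, are to be read against a background of 13.3% of the 1316 tested genes called lower in salivary glands than in heads, and 13.6% called higher. No member was called higher. The median log2 change of the 23 tested members was -1.79, and it was 0.14 over all tested genes. By complex, the medians were -1.81 in complex I (12 tested), -1.9 in complex III (2), -2.95 in complex IV (3) and -1.27 in complex V (6), and no gene of complex II had enough counts to be tested. ND-B22, an accessory subunit of complex I, had 12 and 11.3 counts in heads and 0 in both salivary gland libraries. Against a floor of 3 counts per library it was at least 4.09-fold lower there, and with ND-B22 set to that bound the median of the members was again -1.79. ATPsynbeta had a log2 change of -0.42 (SE 0.627, edgeR adjusted p = 0.628), against -1.53 (SE 0.586, adjusted p = 0.0878) for ATPsynD of the same complex.

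The calls against heads changed with single libraries, while the direction of the 3 called members did not. Among the other tested members, ND-B18 ranged from -2.39 to 0.13 over the alternatives, against -0.94 in the main fit. A fit without 1 library has 1 sample in an arm, assumed to vary like the others, and fewer residual degrees of freedom, so a lost call does not speak to the library removed. Without female heads, the library with testis genes, none of the 3 passed and ND-75 alone was called, with edgeR adjusted p-values of 0.0819 for COX5B, 0.179 for COX6B and 0.193 for ATPsynC. None of the 3 was called without male heads or without male salivary glands, and all 3 were without female or male eyes. The median log2 change of the tested members minus that of all genes was -2.09 without male heads and -1.24 without male salivary glands. It was -1.71 without female eyes and -1.81 without male eyes, against -1.93 in the main fit. Without female salivary glands ATPsynC and COX5B were called and COX6B was not. Over the 12 alternatives the adjusted p ranged from 2.03e-04 to 0.191 for COX5B, from 8.45e-04 to 0.302 for COX6B and from 1.45e-06 to 0.193 for ATPsynC. The log2 change over them ranged from -7.18 to -3.38 for COX5B, from -4.2 to -2.32 for COX6B and from -3.44 to -2.7 for ATPsynC. Scaling to library totals moved the median of all genes to -0.58. It called 15 of 23 members and 375 of all tested genes, against 3 members and 354 genes in the main fit. The members lay 1.93 below the median of all genes with the main scaling (log2 difference of -1.93) and at -1.94 from it with library totals. The fat body list, 17.9% and 17.3% of the salivary gland counts, moved with these differences, and its part in them was not tested.

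**Figure D4:**
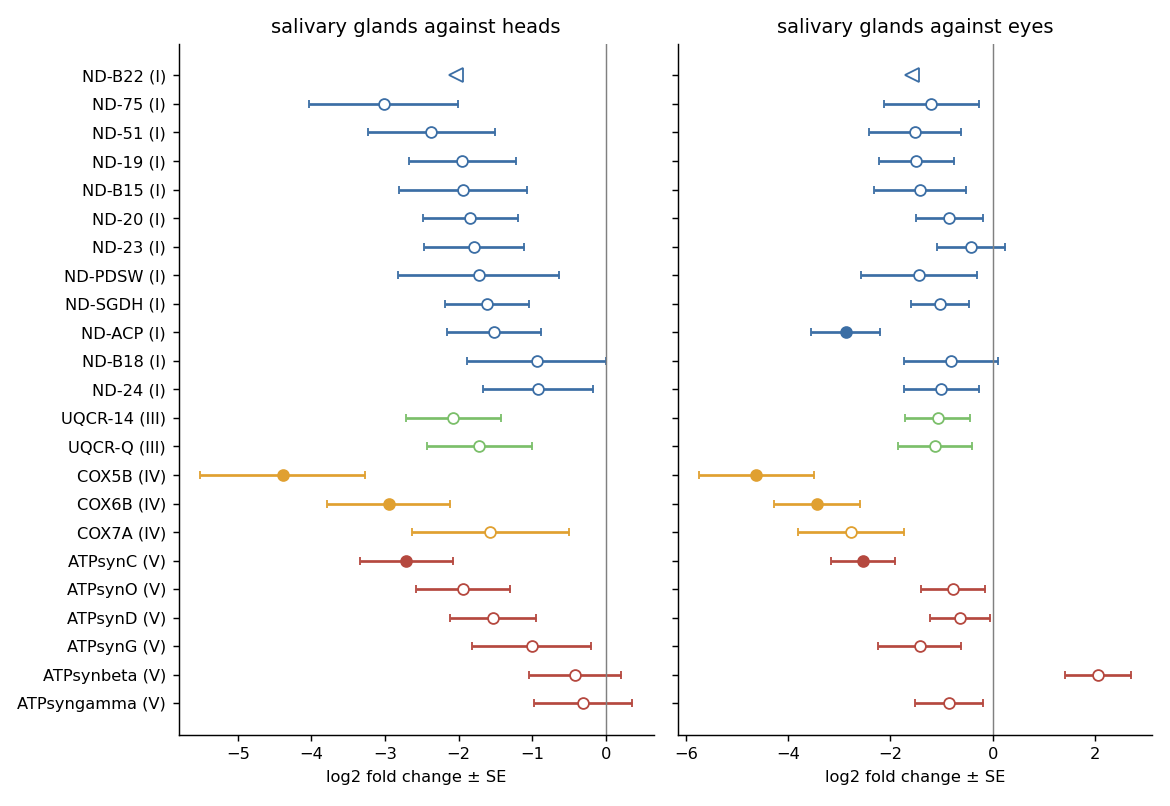
Log2 fold change ± SE (x axis) of the 23 tested members (rows, complex in brackets) in salivary glands against heads (left) and against eyes (right), from 6 libraries; filled points have an edgeR adjusted p under 0.05, and the open triangle of ND-B22 is its bound against 3 counts per library. All left-hand values are below 0, and on the right ATPsynbeta stands apart at 2.06.

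Against eyes, 22 of the 23 tested members had a fitted value below 0 in salivary glands, next to 51.8% of all tested genes. ND-ACP, COX5B, COX6B and ATPsynC fell past the threshold. Over all tested genes 11.7% were called lower in this comparison and 13.4% higher. ND-ACP, with 280.5 and 181.1 counts in eyes and 22.6 and 32.2 in salivary glands, fell by 2.87 on the log2 scale (SE 0.675, edgeR adjusted p = 0.0311). Its ratio of summed rates was 0.112 (0.0837 to 0.149). COX5B had a fitted change of -4.62 (SE 1.12, edgeR adjusted p = 0.0323) and COX6B of -3.43 (SE 0.838, edgeR adjusted p = 0.0323), with the counts given above. ATPsynC fell from 193.5 and 170.6 counts in eyes by 2.54 on the log2 scale (SE 0.626, edgeR adjusted p = 0.0325). ND-B22, at 9 and 8 counts in eyes, was at least 2.98-fold lower in salivary glands.

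ATPsynbeta was the exception among the tested members, with 107.9 and 117.4 counts in eyes and 329.8 and 497.9 in salivary glands. The libraries of the tissues did not overlap, and the summed rate was 3.48-fold higher in salivary glands (3 to 4.06). The fitted log2 change was 2.06 (SE 0.643) and did not pass the threshold (edgeR adjusted p = 0.0563, range over 12 alternatives 0.0279 to 0.259). The median log2 change of the tested members was -1.2, and it was -0.09 over all tested genes. Both comparisons use the same salivary gland libraries, so their shared calls are not separate observations. The median log2 change of the tested members minus that of all genes was -1.35 without female eyes, the library with eggshell genes. It was -0.33 without male salivary glands and -1.11 in the main fit. ATPsynC was not called without either head library or either salivary gland library, nor ND-ACP without female salivary glands. COX5B and COX6B were not called without male salivary glands. Over the 12 alternatives the adjusted p lay between 3.26e-04 and 0.0828 for ATPsynC, 2.39e-04 and 0.0515 for ND-ACP, 0.00116 and 0.168 for COX5B and 0.00165 and 0.201 for COX6B. The log2 change stayed between -2.98 and -2.46 for ATPsynC, -3.26 and -2.79 for ND-ACP, -7.35 and -3.56 for COX5B and -4.63 and -2.76 for COX6B.

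The comparison of eyes with heads sets the dissected eye beside the head. The photoreceptor share was higher in male eyes than in male heads but lower in female eyes than in female heads, as given above. No member passed the threshold in eyes against heads, and 0% of the 1316 tested genes did with edgeR, where 175 genes and 1 member had an unadjusted p under 0.05. DESeq2 called 32 genes, of which ATPsynbeta was a member, and limma-voom none. ATPsynbeta had the largest fitted difference of the tested members, with 7501 and 4949 CPM in heads and 753 and 935 in eyes. Its libraries did not overlap between the tissues, the summed rate was 7.42-fold higher in heads (6.46 to 8.58), and the log2 change was -2.48 (SE 0.654, edgeR adjusted p = 0.274). Over the 12 alternatives the adjusted p lay between 0.0192 and 1, and 4 of them, including DESeq2 and the fit without male eyes, put it past the threshold. The log2 change was -2 without female heads (edgeR adjusted p = 1) and -2.3 without female eyes (adjusted p = 0.108).

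The next members in that direction were ND-75 at -1.83 (SE 0.926) and ND-23, a core subunit with iron-sulfur clusters, at -1.36 (SE 0.658). ND-23 stood at 1129 and 940 CPM in heads against 345 and 255 in eyes. In the other direction ND-ACP had a log2 change of 1.35 (SE 0.63), COX7A of 1.2 (SE 0.876) and ATPsyngamma, the rotating shaft of the ATP synthase, of 0.56 (SE 0.649). Their edgeR adjusted p-values were 0.405, 0.539 and 0.716. The median of the 23 members was -0.46 (-0.49 in complex I, -0.8 in complex III, 0.48 in complex IV and -0.53 in complex V), and 0.06 over all tested genes. All 3 tested genes of complex IV had a fitted value above 0, against 2 of 12 in complex I and 2 of 6 in complex V, and none of these passed the test. Over all tested genes, 682 of 1316 were above 0. For COX5B the fitted 0.23 goes against its CPM, which was lower in eyes than in heads in both sexes (112 and 127 in females, 135 and 154 in males), and it ranged from -0.2 to 0.39 over the alternatives.

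Within each sex the summed complexes are given as a description without a test. Their CPM rest on totals in which rRNA-named rows took 23.9% and 22% of female and male eyes and 8.21% and 12.6% of heads. Without these rows and qtc, the member share was 2.68% in female eyes and 4.79% in female heads, and 2.19% and 4.14% in males. Female eyes held complex I at 0.55 of the CPM of female heads (0.518 to 0.584) and complex V at 0.35 (0.324 to 0.377). Male eyes held them at 0.551 (0.513 to 0.591) and 0.352 (0.323 to 0.384) of male heads. Complex IV stood at 1.31 (0.936 to 1.81) in females and 1.12 (0.825 to 1.54) in males, so that neither interval left out 1. Within complex V, ATPsynbeta stood at 0.135 of its summed rate in heads (0.117 to 0.155), ATPsynD at 0.408 (0.375 to 0.444) and ATPsynC at 0.66 (0.577 to 0.755).

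Female and male flies were compared over the 3 somatic tissues, as the series does for qtc. No member differed past the threshold, and 0% of the 1316 tested genes did with edgeR. There, 34 genes and 1 member, ND-75, had an unadjusted p under 0.05, while DESeq2 called 2 genes and limma-voom none, and neither called a member. ND-75 (FBgn0017566, chromosome X from 8248651 to 8251687, minus strand) encodes the largest iron-sulfur core subunit of complex I. It gave 165.7 counts in female and 19 in male eyes, 400.7 and 139.9 in heads and 100.8 and 2.1 in salivary glands, so that the female library was higher in 3 of 3 tissues, by 7.64-fold (4.75 to 13), 2.9-fold (2.39 to 3.54) and 41.5-fold (11.9 to 370). Male heads were above female salivary glands, so the sexes overlapped across tissues. The fitted log2 difference was 3.06 (SE 0.826, edgeR adjusted p = 0.961). All its counts came from the transcript ND-75-RB.

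The ND-75 difference kept its sign in the 12 alternatives, from 2.25 to 3.77, with adjusted p-values from 0.00274 to 0.961. It was past the threshold in 3 of them: without female eyes, without male eyes and with no filter on low counts. In the gonads ND-75 stood at 126 CPM in ovaries and 67.9 in testes, a ratio of 1.86 (0.713 to 5.68). The female eye and head libraries are those with eggshell and testis genes. Female salivary glands, where the ND-75 ratio was highest, held 3 of 10 eggshell genes at 0.0152% and 1 of the 9 testis genes at 6.60e-04%. That ratio rests on 2.1 counts in male salivary glands. The part of foreign tissue in the ND-75 difference was not tested.

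The other tested members lay on both sides of 0 between the sexes. With a median log2 difference of 0.11 (0.09 in complex I, 0.46 in complex III, 0.15 in complex IV and 0 in complex V), against -0.03 over all genes, 15 of 23 were above 0. Of all 1316 tested genes, 641 were. With DESeq2's size factors the median of the members was -0.07, 0.09 above the -0.16 of all genes. After ND-75 came ND-B15 at 0.79 (SE 0.682) and ND-51 at 0.77 (SE 0.681), and on the male side ND-24 at -0.47 (SE 0.601), ATPsynbeta at -0.13 (SE 0.513) and ND-B18 at -0.1 (SE 0.793). Their edgeR adjusted p-values lay between 0.961 and 0.995. UQCR-14 was 1.9-fold higher in female than male eyes (1.38 to 2.67), 1.64-fold in heads (1.36 to 2) and 1.02-fold in salivary glands (0.613 to 1.68), with a fitted 0.6 (SE 0.514, edgeR adjusted p = 0.961).

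Within a tissue the sexes could only be set side by side, as 1 library against 1. Of 25 members with 10 counts or more in an eye library, ND-75, ND-PDSW, COX5A and ND-B18 were more than 2-fold higher in female eyes and ND-B17.2 in male eyes. The background was 37% of 1272 genes higher in female and 28.5% higher in male eyes, and the members' 4 and 1 of 25 are read against these shares. Between the same libraries the eggshell list differed at 8.36% and 0.0242%, gut enzymes at 0.46% and 0.00239%, fat body genes at 0.026% and 1.14% and photoreceptor genes at 4.63% and 17.4%, and their part in these ratios was not tested. ND-PDSW, an accessory subunit of complex I, had 11 against 3 counts (3.21-fold, 0.849 to 17.9) and COX5A, a subunit of complex IV, 16 against 6 (2.34-fold, 0.868 to 7.29). ND-B17.2, also accessory to complex I, was at 0 in female and 11 counts in male eyes, at least 4.19-fold higher in males against a floor of 3 counts.

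In heads, 1 of 27 members was past 2-fold in females, ND-75, where 16.1% of 1336 genes were. Higher in male heads were 3 members, ND-B18, ND-24 and ND-B17.2, against 18.2% of genes. ND-24, a core subunit of complex I, had 41 counts in male and 15 in female heads (2.7-fold, 1.46 to 5.25). ND-B18, an accessory subunit, had 47.7 and 12 (3.94-fold, 2.07 to 8.17), but its exons overlap those of opm on the opposite strand, which held 164 counts over the libraries. In salivary glands, 2 of 13 members, ND-75 and ND-19, were past 2-fold in females and none in males, against 14.3% and 18.8% of 1010 genes. ND-19, an accessory subunit, had 56 counts in female and 16.2 in male salivary glands, a ratio of 3.03 (1.73 to 5.72). On the male side ATPsynbeta had a female to male ratio of 0.58 (0.503 to 0.668), ND-23 of 0.592 (0.324 to 1.07) and ND-ACP of 0.615 (0.351 to 1.11).

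By complex, the order of the sexes depended on the scale. By CPM the female library was higher in eyes and heads for complexes I and V, and in salivary glands complex V was higher in the male library. By TPM complex I was higher in male eyes, at 18232 against 16035, and in male heads, at 29165 against 28844. Complex V by TPM stood at 8010 in female and 7911 in male eyes, 19653 and 20419 in heads, and 3814 and 4772 in salivary glands. For complex I the female to male ratio of CPM was 1.24 (1.15 to 1.34) in eyes, 1.25 (1.18 to 1.32) in heads and 1.05 (0.933 to 1.19) in salivary glands. For complex V it was 1.2 (1.08 to 1.32), 1.2 (1.14 to 1.28) and 0.707 (0.636 to 0.786). Complex III had 1.64 (1.24 to 2.21), 1.5 (1.26 to 1.8) and 1.03 (0.66 to 1.61), nearly all from UQCR-14: without it the ratios were 0.926, 0.856 and 1.09. The intervals of complex IV took in 1 in eyes, at 0.935 (0.684 to 1.26), and in heads, at 0.799 (0.574 to 1.13). In salivary glands its interval did too, at 3.36 (0.945 to 19.3) from 11.6 and 3 counts.

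Ovaries and testes, the organs of the egg and the sperm, were compared as 1 library against 1. Complex V differed more than complex I, at 10684 CPM in ovaries and 3583 in testes, a ratio of 2.98 (2.64 to 3.37), against 1.56 (1.42 to 1.7) from 12181 and 7827 CPM. Complex III had a ratio of 2.07 (1.49 to 2.89), complex IV of 2.3 (1.29 to 4.22) and complex II of 0.829 (0.446 to 1.54). These ratios leave out the copies whose symbols end in a capital L. COX6AL, a complex IV copy, had 309.7 counts in testes and 0 in ovaries, and COX4L 21.1 and 0. The members of complex IV together had 15.9 counts in testes, so the ratio of 2.3 does not describe complex IV with its copies. Of 25 members with 10 counts or more in either library, 14 were more than 2-fold higher in ovaries and 4 in testes, where 43.9% and 39.3% of 1660 genes were. The median log2 ratio was 1.45 over the members and 0.56 over all genes. At a minimum of 20 counts fewer members and genes entered. There 7 members were past 2-fold in ovaries, a count that is not comparable with the 14 of 25.

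ATP synthase subunits led the ovary side. ATPsynO, the subunit that joins the stator stalk to the catalytic head, had 104 counts in ovaries and 2 in testes, a ratio of 30.4 (8.23 to 255). ATPsynC had 191.4 and 7, a ratio of 16 (7.61 to 40.3), and ATPsyngamma 52.8 and 2, a ratio of 15.5 (4.09 to 132). In contrast ATPsynD, with 858.3 and 158.4 counts, had a ratio of 3.18 (2.68 to 3.8), and ATPsynbeta, with 376.9 and 134.1, of 1.65 (1.35 to 2.02). The intervals of ATPsynO, ATPsynC and ATPsyngamma lie above those of ATPsynD and ATPsynbeta, so members of 1 complex differed from each other beyond counting error in these libraries. ND-ACP, at 319.6 and 21.9 counts, had a ratio of 8.54 (5.53 to 13.8). Of the ATPsynC counts in testes, all 7 were assigned to ATPsynC-RE, which held 29.3% in ovaries, where ATPsynC-RA held 57.6%.

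**Figure D5:**
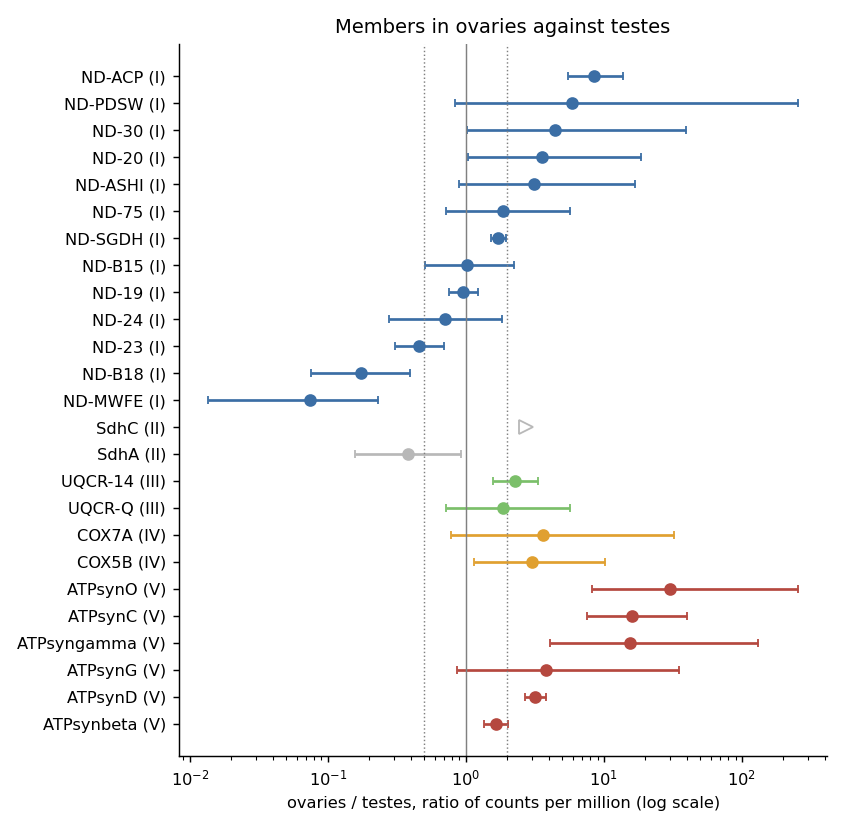
Ratio of CPM in ovaries to testes (x axis, log scale) for the 25 members with 10 counts or more in either library (rows, complex in brackets), with exact 95% intervals of the counts; dotted lines mark 2-fold and the open triangle of SdhC is a bound against 3 counts. ATPsynO, ATPsynC and ATPsyngamma lie furthest right (30.4, 16 and 15.5) and ND-MWFE furthest left (0.0745).

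On the testis side stood ND-MWFE, a small accessory subunit of complex I, with 24.7 counts in testes and 3.1 in ovaries, 13.4-fold higher (4.34 to 73.6). It was at 0 in male eyes and in both salivary gland libraries and had at most 3 counts in the other somatic ones. Its exons overlap those of Nrk on the same strand and TppII on the opposite strand, which together held 26.1 counts. ND-B18 had 29.1 and 8.6 counts (5.74-fold, 2.53 to 13.2), SdhA, which overlaps CG11257, 15.3 and 10.0 (2.62-fold, 1.08 to 6.37) and ND-23 57 and 44.8 (2.17-fold, 1.44 to 3.27). ND-19 was near equal at 1346 CPM in testes and 1290 in ovaries (ratio 0.959, 0.761 to 1.22). ND-51, a core subunit that binds the flavin, was at 0 in testes and had 9.2 counts in ovaries and 32.5 in female heads. SdhC was at 0 in testes and had 14 counts in ovaries, at least 2.74-fold higher.

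Other genes of the pathway were read from lists for comparison. Of the 9 subunit and cytochrome c genes outside the naming rule, 3 could be tested and 0 passed in any of the 4 comparisons, with medians of -1.37 in salivary glands against heads and -0.91 against eyes. The largest of them, blw, the ATP synthase alpha subunit, had 48.1 and 111 counts in female and male eyes, 71.7 and 148.6 in heads, 20.2 and 16.4 in salivary glands, 80.3 in ovaries and 8.1 in testes. Of the 13 mitochondrially encoded genes, 6 were tested, and mt:ATPase6 alone passed, lower in salivary glands than in heads (log2 change -2.44, SE 0.713, edgeR adjusted p = 0.0458) and than in eyes (-3.72, SE 0.735, edgeR adjusted p = 0.0202). Its neighbour in the list, mt:ATPase8, stood at 1.5 (SE 0.863) against heads and 0.06 (SE 0.81) against eyes. How reads were split between mt:ATPase6 and mt:ATPase8 was not tested. Of the 6, 4 were below 0 against heads and 5 against eyes. In eyes against heads the median of those 6 was 1.36 and that of the nuclear members -0.46, with no call in either. The sexes differed here: the 13 genes took 0.143% of counts in female eyes and 0.162% in female heads. In males they took 0.374% in eyes and 0.117% in heads. Their share was highest in male eyes and lowest in ovaries at 0.0489%.

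Of 9 assembly factors found in the table, 2 were tested, and Cox10, an enzyme of heme A synthesis, was lower in salivary glands than in heads (log2 change -4.57, SE 1.2, edgeR adjusted p = 0.036), with 28.1 and 11.4 counts in heads against 1 and 0. Of 14 tricarboxylic acid cycle genes in the table, 7 were tested, and Idh3a, a subunit of isocitrate dehydrogenase, was lower in salivary glands than in eyes (-3.72, SE 0.939, edgeR adjusted p = 0.0352). Among 11 carrier and import genes 2 were tested, and among 6 regulators TFAM, a factor of mitochondrial DNA, was. None of these 3 passed in any of the 4 comparisons.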

How the data were processed

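Long-read cDNA of 8 libraries was analysed, 1 per tissue and sex group as the labels give them. Per library, the authors deposited an estimated count, often not whole, and a TPM value for each of 31089 transcripts. The authors also deposited whole-number counts of reads per library, 90780 to 156627 after their filter. The submitters' processing notes name minimap2, Salmon, edgeR and, as build, BDGP6, without roles. Of the transcript IDs, 31048 were found in release 115 of the BDGP6 annotation, and the other 41, at 0.0938% to 0.535% of a library's counts, were left out. Sums per gene, for 14292 genes, were rounded for the count models. Reads of overlapping genes and near-identical copies are uncertain.

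The 6 somatic libraries entered a robust quasi-likelihood fit of tissue plus sex (edgeR 4.0.16 under R 4.3.3), scaled by TMM and filtered by filterByExpr at a minimum count of 10, with 2 residual degrees of freedom. The error is how far tissues depart from 1 common difference between the sexes, so p-values measure the spread between these samples and not between animals. Of 1316 genes kept, 23 were members. Benjamini-Hochberg adjustment ran over all genes kept, with a threshold of 0.05. Each SE is the absolute log2 change divided by the square root of its F statistic. It is not an SE reported by the model and need not match the p-value. The script was tested on simulated data that held a sex difference alone and no difference between tissues, so the tissue comparisons were not covered. Gonads and the sexes within a tissue were compared by ratios with exact intervals at 95%, over genes with 10 counts or more in either library. A library at 0 was set to 3 counts. TPM were used for levels between genes, but whether counts in these long-read libraries scale with transcript length was not tested. DESeq2 1.42.0, limma-voom (limma 3.58.1), other scalings and filters and leaving out each library were the alternatives.

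Members, lists and tests were chosen with earlier results of these data known. Named are the 3 members of highest mean CPM in each complex, those past a threshold, the 3 of largest change in each direction of a comparison, ND-75 and ATPsynbeta, and members at 0 in a library and at 20 counts or more in another.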

Additional observations from a re-analysis of the deposited data

Results flagged for a closer look

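The female to male ratio of some genes ran in opposite directions between tissues, each with a counting interval that leaves out 1. The difference between the ratios was not tested, since each is 1 library against 1. ND-SGDH was 1.16-fold higher in female than male eyes (935.9 and 706.1 counts) and 1.19-fold higher in female than male heads (1760.3 and 1501.5), but stood at 0.784 of the male level in female salivary glands (329 and 367.4). By TPM it was lower in female than male eyes, at 8959 and 10309, and near equal in heads, at 19233 and 19085, so the higher female value in eyes is not found on that scale. ATPsynbeta had a ratio of 1.52 in heads (1001.2 and 668.9 counts) and 0.58 in salivary glands (329.8 and 497.9). ND-B18 had a ratio of 2.32 in eyes (29.1 and 11 counts) and 0.254 in heads (12 and 47.7), and shares exon sequence with opm.

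The sum of all members had a ratio of 1.23 in eyes (2896.3 and 2070.4 counts), 1.23 in heads (5792.9 and 4759.5) and 0.851 in salivary glands (1291 and 1328). The sum of complex V had a ratio of 1.2 for eyes, 1.2 for heads and 0.707 for salivary glands. Without the most counted member of each complex, the ratios over all members were 1.17, 1.33 and 0.862, and those of complex V, without ATPsynD, were 0.994, 1.35 and 0.635. By TPM the member share was 2.8% in female and 3.03% in male eyes and 5.65% and 5.63% in heads, so by TPM the order in eyes turned and the heads were nearly equal.

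COX6AL, a copy of a complex IV subunit gene left out by the ending of its symbol, had 48.6 counts in female heads, next to 309.7 in testes, 1 in male heads and 2 in female eyes. It drew attention as a count above the limit of 3 that a count of 0 allows outside testes, in the library that also held Mst98Ca at 457.9 counts.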

How the results depend on the processing

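No paired analysis was possible because the labels carry no replicate numbers to block on; libraries are matched through the tissue and sex terms of the fit alone. Of 300 refits of 25 named gene comparisons, 244 kept direction and side of the threshold, 31 newly passed, 20 no longer passed and 5 reversed; the causes were not tested. With a library left out, ATPsynbeta between the sexes ranged from -0.72 to 0.22, with 0.2 and 0.22 without female or male salivary glands. ND-B18 ranged from -0.87 to 0.63, with 0.63 without either head library. ATPsyngamma in eyes against heads ranged from -0.34, without male heads, to 1.03. None of these was past a threshold. The filter on low counts changed with each library left out, so those fits test different genes.

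Members called between the sexes were 0 and became 1 with no filter on low counts, and 0 to 1 when a library was left out. In eyes against heads they were 0, 1 with DESeq2, and 0 to 1 with a library left out. In salivary glands against heads they were 3, with 15 on library totals, 11 with DESeq2 size factors in edgeR, 13 with DESeq2, 8 with limma-voom, 7 without rRNA-named rows and 0 to 15 with a library left out. In salivary glands against eyes they were 4, with 7 by limma-voom, 2 with no filter and 1 to 6 with a library left out. Members tested were 23 in the main fit, 24 without rRNA-named rows, 61 with no filter and 28 to 31 with a library left out. In salivary glands against heads, all genes called were 354, with 375 on library totals and 414 with DESeq2 size factors in edgeR. They were 423 with DESeq2, 471 with limma-voom and 315 without rRNA-named rows. Against eyes they were 331, with 474 by limma-voom and 361 with no filter. With 20 counts as the minimum, members past 2-fold were 2 (female eyes), 0 (male eyes) and 7 (ovaries). Fewer members and genes entered there, so these are not comparable with counts at 10.

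Without rRNA-named rows and qtc in the total, the member share was 2.68% in female and 2.19% in male eyes, 4.79% and 4.14% in heads, 0.932% and 1.09% in salivary glands, 2.52% in ovaries and 1.33% in testes. By TPM it was 2.8%, 3.03%, 5.65%, 5.63%, 0.935% (female salivary glands), 2.75% (ovaries) and 1.71% (testes). The order of female and male eyes thus turned by TPM, and that of ovaries and female eyes under both alternatives. The core part of complex I without ND-75, an alternative chosen after seeing the data, ranged from 5.53% (ovaries) to 10.9% (male heads).

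Shares of complexes are given for female eyes, male eyes, female heads, male heads, female salivary glands, male salivary glands, ovaries and testes in this order. By TPM complex I took 57.2%, 60.1%, 51.1%, 51.8%, 49.2%, 47.6%, 52.8% and 67.3%. Complex II took 0.529%, 0.708%, 0.368%, 0.243%, 0.399%, 0.33%, 0.43% and 0.613%. Complex III took 9.31%, 6.83%, 11.9%, 8.79%, 8.03%, 6.61%, 8.4% and 7.67%. Complex IV took 4.43%, 6.24%, 1.84%, 2.85%, 1.64%, 0.554%, 2.86% and 1.83%. Complex V took 28.6%, 26.1%, 34.8%, 36.3%, 40.8%, 44.9%, 35.5% and 22.6%. Counted without the most counted member of each complex, complex I took 57.3%, 49.2%, 40.1%, 39.3%, 37.2%, 17.3%, 46.4% and 62.7%. Complex II then took 1.44%, 1.72%, 0.841%, 0.616%, 0.571%, 0.56%, 1.13% and 0.88%. Complex III then took 1.6%, 2.02%, 1.16%, 1.8%, 1.44%, 1.13%, 1.63% and 2.17%. Complex IV then took 5.02%, 6.35%, 1.56%, 2.76%, 1.28%, 0.28%, 3.47% and 2.95%. Complex V then took 34.6%, 40.8%, 56.4%, 55.5%, 59.5%, 80.7%, 47.3% and 31.3%. Depth limits most members: 43 of 66 had too few counts to be tested.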
